A study of Homo sapiens with 6 samples.

Results

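The RNA levels of 10 genes of the hypoxia response were examined in parental and adapted H1975 cells, taken by symbol from a table of 27216 rows in which every one of the 10 was present. They comprise 2 factors (HIF1A and EPAS1), 2 oxygen-sensing hydroxylases (EGLN1 and EGLN3) and 6 target genes (CA9, VEGFA, ADM, NDRG1, ANKRD37 and BNIP3). The set was chosen in part because BNIP3 is strongly lower in adapted cells. The difference between the groups was therefore used in the choice, and for these 10 genes it is given as a description without a test. H1975 is a human non-small cell lung cancer line that carries a mutant EGFR, here with the genotype label WT, meaning that no engineered change is named. Parental cells (3 samples) are labelled as osimertinib (Osi, an EGFR tyrosine kinase inhibitor, 1000 nM) for 0 h and their columns are named for DMSO, and adapted cells (3 samples) as Osi 1000 nM for 72 h. In the adapted group, dead cells were washed off, so only cells still attached were sampled. Whether the parental cells were cultured in DMSO for the same time is not stated, so drug and time in culture cannot be told apart. The labels also describe RNase R, an enzyme that degrades linear RNA, while the methods of the study name total RNA without it.

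Hypoxia-inducible factors (HIF) are pairs of an oxygen-regulated alpha subunit, encoded by HIF1A or EPAS1, and the stable beta subunit ARNT. In oxygenated cells the EGLN prolyl hydroxylases mark the alpha subunits, VHL recognizes the mark, and the ubiquitin ligase built on CUL2, RBX1 and the elongins sends them for degradation. When oxygen or the hydroxylases are limiting, the alpha subunit accumulates and HIF binds the core letters ACGTG or GCGTG near genes of glycolysis, vessel growth, pH control and mitophagy. EGLN1 and EGLN3 are themselves HIF targets. Growth factor signaling can raise HIF1A expression without a change in oxygen. HIF is regulated largely at the protein level, which these data do not measure.

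The core letters were searched on both strands in the 250 bases before the RefSeq start sites (GRCh38.p14), counting overlapping matches such as the palindrome CACGTG once. Of the 10 genes, 8 had a window and 7 of these held at least 1 match, against 47.4% of the 27305 genes with a window. The GC content of their windows ranged from 60.4% to 81.6%, apart from a second HIF1A window at 31.2% that held no match. The median over 35116 windows of all genes was 58.0%. Every window with a match was thus richer in GC than that median, and the share with a match was not adjusted for GC content. BNIP3 held 5 matches, the most of the 8. Its sequence is shown because this gene led to the choice of the set, and it runs from 250 to 91 bases before the start, chr10:131982014-131982173, minus strand, 5′ to 3′, with the matches in capitals.
BNIP3: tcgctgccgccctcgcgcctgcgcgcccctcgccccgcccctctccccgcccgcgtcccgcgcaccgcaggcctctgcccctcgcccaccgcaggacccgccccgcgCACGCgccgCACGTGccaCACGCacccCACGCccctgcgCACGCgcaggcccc
The single matches of 5 other genes and the 2 of ANKRD37 are shown with the bases around them, on each gene's own strand, to show which form of the core each gene holds. They lie at chr14:61695297-61695325 (HIF1A), chr2:46297278-46297306 (EPAS1), chr1:231422288-231422312 (EGLN1, minus strand), chr11:10304960-10304988 (ADM), chr9:35673898-35673926 (CA9), and chr4:185396667-185396696 and chr4:185396686-185396714 (ANKRD37).
HIF1A: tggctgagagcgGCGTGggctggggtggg
EPAS1: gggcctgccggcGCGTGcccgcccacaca
EGLN1: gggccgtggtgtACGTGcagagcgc
ADM: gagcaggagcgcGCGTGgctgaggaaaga
CA9: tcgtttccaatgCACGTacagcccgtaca
ANKRD37, first: ggcgccgggctcCACGTGccagtgtttgtg
ANKRD37, second: cagtgtttgtgtACGTGcggccgtggcgg
GENCODE v29 begins several of these genes further upstream than the RefSeq start used here. By that annotation the matches of EGLN1, ADM, CA9 and ANKRD37 fall in exons, that of EPAS1 falls inside the gene but outside its exons, and those of BNIP3 and HIF1A lie before the gene. EGLN3 had no match in its window. A match is a description of letters and shows no binding.

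The table gives 1 value per gene and sample, read here as log2(FPKM + 1). FPKM scales the fragments of a transcript to its length and to the size of the library. Read counts were not analyzed, so depth is unknown and errors come from the replicates alone. Per sample, the FPKM values add up to 375342 to 387753. The study describes its data in general as coming from independent experiments. For the RNA samples themselves neither the labels nor the sequencing methods say whether those of a group were separate cultures, so p-values measure only the spread between these samples, which may be technical. The parental samples correlated at r of at least 0.997 across rows, and adapted replicate 1 correlated with the other adapted samples at 0.991, against 0.996 between those 2. All 6 epithelial markers (EPCAM, KRT7, KRT8, KRT18, KRT19 and CDH1) were above 1 FPKM and summed to between 3491 and 3788 FPKM per sample. Below 1 FPKM in every sample were 4 of 6 fibroblast markers, 5 of 6 leukocyte markers and 2 of 4 endothelial markers. The summed fibroblast markers were 3.04 to 3.17 FPKM in parental and 8.60 to 9.33 in adapted cells, the leukocyte markers 75.3 to 77.9 and 15.6 to 30.1, nearly all CD68, and the endothelial markers 1.13 to 1.86 and 1.46 to 3.48. Within the endothelial sum, mean PECAM1 was 1.35 FPKM in parental and 0.063 in adapted cells, while mean CDH5 was 0.156 and 2.39. The part of these markers in the results was not tested.

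Within the set, HIF1A and most of the target genes were lower in adapted cells, with NDRG1 the furthest, while EPAS1 hardly differed and CA9 RNA was near 0 in both groups. With a mean log2 value of at least 1 over the 6 samples required for the fit, 9 of the 10 genes passed, CA9 being the exception. In all 9 the 3 adapted values lay below the 3 parental values, where 30.6% of the 12656 rows tested did so, 35.7% lay wholly the other way and 66.3% showed no overlap in either direction. The log2 fold change was -1 or lower in 6 of the 9 and in 5.24% of all rows. The set was chosen from this contrast, so nothing is read from these counts. The median log2 fold change of the 9 was -1.41 and that of all rows 0.028. In these bulk samples, fewer cells with a transcript and less of it per cell cannot be told apart.

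HIF1A encodes the alpha subunit of HIF-1 and lies on the plus strand of chromosome 14 from 61695513 to 61748259 (GENCODE v29, GRCh38, the build the submitters' processing notes name as hg38). It was at 239.6, 238.0 and 230.9 FPKM in the parental and 112.4, 78.3 and 78.9 FPKM in the adapted samples. The groups were far apart, and adapted replicate 1 stood above the other 2. On the log2(FPKM + 1) scale the mean was 7.89 ± 0.03 and 6.48 ± 0.30 (SD, n = 3 each). The log2 fold change was -1.41 (SE 0.14), and it was -1.58 without adapted replicate 1. HIF1A ranked 195 by parental level among all rows and was the most abundant of the 10 genes in both groups.

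EPAS1 encodes the alpha subunit of HIF-2, a relative of HIF-1 alpha with a partly different target range, and lies on chromosome 2 from 46293667 to 46386703. Its values were 35.3, 35.2 and 33.2 FPKM in parental and 29.9, 30.9 and 31.4 FPKM in adapted samples. They did not overlap, but the gap was small: the adapted mean was 88.9% of the parental mean, with a log2 fold change of -0.16 (SE 0.06). Over 16 other settings of the fit the log2 fold change of EPAS1 lay between -0.19 and -0.14. With the values read as FPKM, which is scaled to length, both alpha subunits were compared within a sample. An effect of RNase R or of overlapping genes on such ratios was not tested. The HIF1A level was 6.83 ± 0.11 times that of EPAS1 in parental cells and 2.93 ± 0.72 times in adapted cells (SD, n = 3 each), with adapted replicate 1 at 3.76 and the others at 2.53 and 2.51.

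EGLN1 (PHD2) is the prolyl hydroxylase that sets HIF-1 alpha levels in most oxygenated cells, and lies on chromosome 1 from 231363751 to 231425044. It was at 11.8, 12.1 and 11.1 FPKM in parental and 8.14, 5.99 and 5.21 FPKM in adapted samples. The adapted values were all lower and more spread out, with replicate 1 nearest to the parental level, and the log2 fold change was -0.78 (SE 0.14). EGLN3 (PHD3), the hydroxylase most strongly induced by HIF in many cell types, lies on chromosome 14 from 33924231 to 34462774. Its level was 14.3, 13.4 and 14.2 FPKM in parental and 3.70, 3.10 and 3.04 FPKM in adapted samples. The log2 fold change of EGLN3 was -1.81 (SE 0.08), and -2.06 with a pseudocount of 0.1. Between the 2 hydroxylases the order turned: EGLN3 was at 1.20 ± 0.09 times the EGLN1 level in parental cells and at 0.52 ± 0.06 times in adapted cells (SD, n = 3 each), without overlap. GENCODE v29 tags HIF1A and EGLN3 as loci that overlap others, and the sources used here do not say whether strand was used in counting, so reads of overlapping genes cannot be told apart.

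NDRG1, a stress-responsive gene that is a widely used marker of hypoxia, lies on chromosome 8. It was at 120.2, 116.8 and 119.2 FPKM in parental and 12.99, 7.83 and 7.71 FPKM in adapted samples. The groups were further apart than for any other gene of the set, with adapted replicate 1 the highest of its group. The adapted mean was 8.01% of the parental mean, and the log2 fold change was -3.55 (SE 0.17), or -3.77 without adapted replicate 1. Only 25 of the 12656 rows tested, NDRG1 included, had a log2 fold change as low.

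BNIP3, a protein of the outer mitochondrial membrane that recruits autophagosomes to mitochondria, lies on the minus strand of chromosome 10 from 131966455 to 131982013, downstream of the 5 core matches shown above. Its level was 66.4, 67.9 and 65.9 FPKM in parental and 17.9, 17.5 and 15.4 FPKM in adapted samples. The adapted samples were close to each other here, unlike in NDRG1, and replicate 1 was only 0.11 above the mean of the other 2 on the log2 scale, against 0.67 in NDRG1. The adapted mean was 25.4% of the parental mean, and 158 of all rows tested had a log2 fold change as low as or lower than that of BNIP3 (-1.92).

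VEGFA encodes the main growth factor for blood vessels and lies on chromosome 6 from 43770184 to 43786487. It was at 99.6, 97.4 and 103.6 FPKM in parental and 27.4, 30.4 and 30.0 FPKM in adapted samples. Here adapted replicate 1 was the lowest of its group rather than the highest, and the log2 fold change was -1.74 (SE 0.06). ADM encodes adrenomedullin, a vasodilator peptide, and lies on chromosome 11 from 10304680 to 10307397. Its values were 37.7, 36.3 and 34.7 FPKM in parental and 20.3, 15.2 and 15.1 FPKM in adapted samples. The adapted mean of ADM was 46.5% of the parental mean, with a log2 fold change of -1.07 (SE 0.11).

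ANKRD37, an ankyrin repeat protein whose gene is a direct HIF-1 target, lies on chromosome 4 from 185396021 to 185400628 and was expressed at a low level. It was at 1.87, 0.900 and 1.06 FPKM in parental and 0.855, 0.669 and 0.869 FPKM in adapted samples. Parental replicate 1 stood apart from the other samples, while the lowest parental and the highest adapted value nearly met. The log2 fold change was -0.32 (SE 0.16), and -0.14 without parental replicate 1. ANKRD37 passed the filter on low values only through the parental group. CA9 encodes carbonic anhydrase IX, a cell surface enzyme of pH control and a standard hypoxia marker, on chromosome 9 from 35673856 to 35681159. It was listed at 0 in 5 samples and at 0.032 FPKM in parental replicate 2. No fold is given for CA9, and without counts a value of 0 does not show that the transcript was absent.

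**Figure D1:**
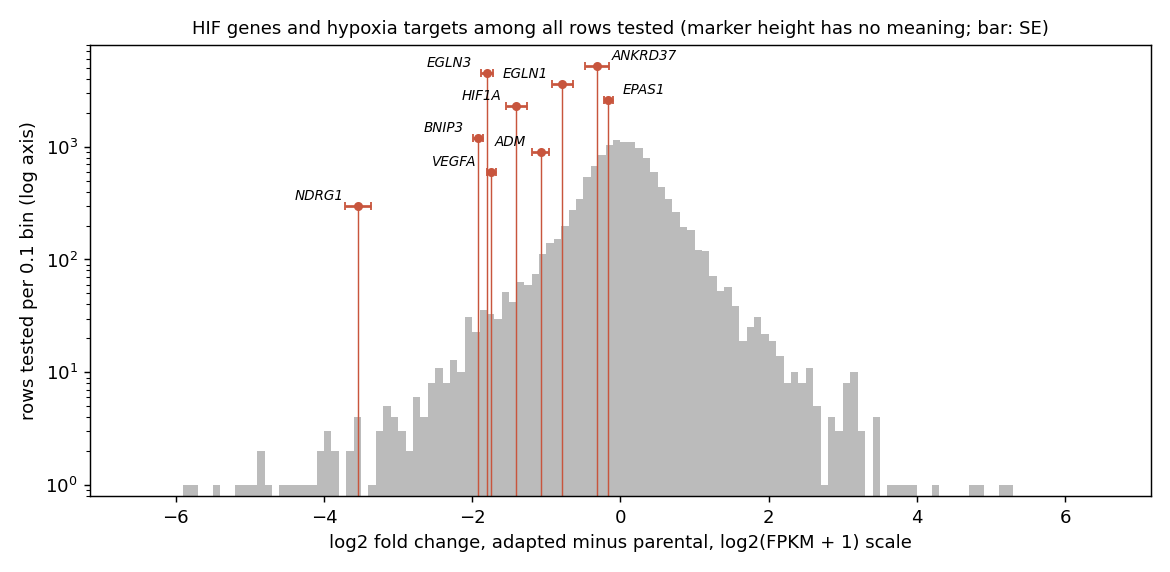
Number of tested rows by log2 fold change between adapted and parental cells (gray, bins of 0.1, log axis), with the 9 tested genes marked in red (point: log2 fold change, bar: SE). NDRG1 lies at -3.55 in the far lower tail, 5 genes lie between -1.92 and -1.07, and EPAS1 lies at -0.16 within the bulk of the rows.

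The order of the genes by level differed between the groups. NDRG1 was second after HIF1A in parental cells and sixth in adapted cells, where its values overlapped those of EGLN1. EPAS1 was sixth in parental cells, where it overlapped ADM, and second in adapted cells, where it overlapped VEGFA. BNIP3 and ADM overlapped in adapted cells and not in parental cells. In 6 of the 9 genes (all but EPAS1, VEGFA and ANKRD37) adapted replicate 1 was the adapted sample nearest to the parental level. The same held for 56.0% of the 3313 rows of the whole table that fell past the threshold (limma, adjusted p under 0.05), so that sample was nearer to the parental cells in many genes.

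Genes that control HIF were counted in the same fit across all rows. All 14 genes of a list of HIF regulators were in the table and 12 were tested, of which 4 (33.3%) rose and 2 (16.7%) fell past the threshold, with a median log2 fold change of 0.044. Over all rows 30.7% rose, 26.2% fell and 56.9% passed in either direction, so the share of regulators past the threshold, 6 of 12, was not above that of all rows. CITED2, itself induced by HIF, encodes a protein that competes with HIF alpha for the coactivators CREBBP and EP300. It was at 7.96, 8.15 and 7.81 FPKM in parental and 31.0, 28.9 and 33.2 FPKM in adapted samples. CITED2 therefore rose while most of the known HIF targets in the set were lower, by 1.83 on the log2 scale (SE 0.07, limma, adjusted p = 3.02e-06). EGLN2 (PHD1), the hydroxylase that is not known as a HIF target, rose from 4.14 ± 0.12 to 5.12 ± 0.20 (mean ± SD, n = 3, limma, adjusted p = 3.07e-04). A readthrough transcript with its own row, RAB4B-EGLN2, shares sequence with EGLN2 and was listed at 0, 0.99 and 1.44 in parental samples and at 0 in all adapted samples on the log2 scale, so the split of reads between these rows is uncertain. HIF1AN, the asparaginyl hydroxylase that blocks coactivator binding, rose by 0.42 (adjusted p = 0.00135, limma), and CREBBP rose by 0.54 (adjusted p = 0.00488, limma).

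VHL, the substrate receptor for hydroxylated HIF alpha, fell from 3.64 ± 0.07 to 3.24 ± 0.10 (mean ± SD, n = 3, limma, adjusted p = 0.00315). ELOC, the elongin C subunit of the same ligase, fell by 0.25 (adjusted p = 0.0169, limma) and lost this call without parental replicate 1 (adjusted p = 0.0721) or parental replicate 3 (adjusted p = 0.0656), which left VHL as 1 regulator that fell. The other tested regulators did not pass the threshold: the log2 fold change was 0.10 for ARNT, 0.09 for EP300, -0.01 for ELOB, -0.01 for RBX1, -0.08 for CUL2 and -0.19 for P4HTM, a transmembrane prolyl hydroxylase. P4HTM passed it without adapted replicate 1 (log2 fold change -0.29, adjusted p = 0.0173, limma). ARNT2, the paralog of ARNT, was under the filter at 0.38 ± 0.06 in parental and 0.78 ± 0.11 in adapted cells, and HIF3A was at or near 0. The prolyl hydroxylases were thus unlike one another, with EGLN1 and EGLN3 lower and EGLN2 higher in adapted cells.

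**Figure D2:**
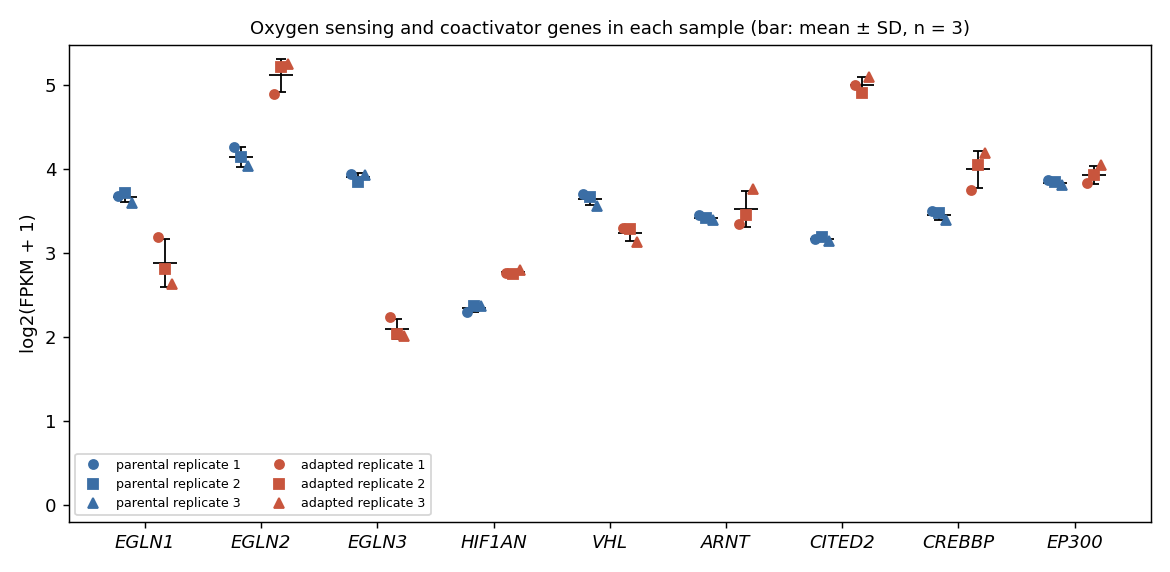
log2(FPKM + 1) of 9 genes of oxygen sensing and HIF coactivation in each sample (blue: parental, red: adapted, shape: replicate number, bar: mean ± SD, n = 3). EGLN1, EGLN3 and VHL are lower in adapted cells, EGLN2, HIF1AN, CITED2 and CREBBP are higher, and the groups overlap in ARNT and EP300.

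Known hypoxia targets outside the set of 10 were mostly lower too. In a list of 21 glycolytic targets, 20 were tested, with a median log2 fold change of -1.18. Past the threshold, 19 fell and 1 rose, where 26.2% of all rows fell and 30.7% rose. This list, like the others, was chosen with earlier results of these data known. PDK1, a pyruvate dehydrogenase kinase, fell from 3.87 ± 0.05 to 1.46 ± 0.16 (mean ± SD, n = 3, limma, adjusted p = 3.51e-06). HK2, a hexokinase, fell by 2.08 (adjusted p = 2.08e-06, limma), and PFKFB4, which makes an activator of glycolysis, fell by 2.07 (adjusted p = 8.61e-06, limma). The exception was LDHA, which converts pyruvate to lactate. Its log2 values were 8.47, 7.95 and 7.60 in parental and 10.42, 10.35 and 10.32 in adapted samples. LDHA is 1 of 147 rows whose values in 1 group leave the 6-decimal grid of the table until a constant is subtracted, here 0.66 from the 3 adapted values. The log2 fold change of LDHA was 2.36 as deposited (limma, adjusted p = 8.37e-05) and 1.70 with the constant subtracted. The SD of its parental values, 0.44, was also wide, since only 68 of the 12656 rows tested had one as large. None of the 10 genes of the set carried such a constant, nor did any other tested glycolytic target.

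Of 40 further hypoxia targets, 34 were tested, with a median log2 fold change of -0.56. Past the threshold, 24 (70.6%) fell and 3 (8.82%) rose, against 26.2% and 30.7% of all rows. In 5 of the 34, 1 group alone carried the gene over the filter, so that these had to differ. Among the other tested genes 21 fell and 1 rose. DDIT4 (REDD1), an inhibitor of mTORC1, fell from 8.60 ± 0.01 to 5.76 ± 0.21 (mean ± SD, n = 3, limma, adjusted p = 3.02e-06). P4HA1, a collagen prolyl hydroxylase, fell by 2.14 (adjusted p = 1.17e-06, limma). PPFIA4, a liprin and among the 5, had a parental log2 value of 2.53 ± 0.03 and an adapted one of 0.51 ± 0.06 (mean ± SD, n = 3). HMOX1, heme oxygenase and also an NRF2 target, rose by 1.09 (adjusted p = 1.09e-04, limma). TMEM45A, a transmembrane protein gene, was also among the 5, with a parental log2 value of 0.69 ± 0.04 and an adapted one of 1.65 ± 0.21 (mean ± SD, n = 3).

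Ligands, receptors and paralogs of the set did not share one direction. Of 15 such genes 9 were tested, and 5 (55.6%) rose and 3 (33.3%) fell, against 30.7% and 26.2% of all rows. The number that rose was 3 without parental replicate 2 and also 3 without parental replicate 3. The VEGF receptor genes FLT1 and KDR and the adrenomedullin receptor genes CALCRL, RAMP2 and RAMP3 were all under the filter. RAMP1, a partner of the calcitonin receptor family, rose by 0.57 (adjusted p = 0.00154, limma). ADM2, the paralog of ADM, rose by 0.48 (adjusted p = 0.00185, limma), whereas ADM itself was lower. VEGFC, a lymphatic growth factor, fell by 0.39 (adjusted p = 0.00398, limma), and NRP2, a coreceptor of VEGF ligands, fell by 0.33 (adjusted p = 0.00275, limma). The paralogs of NDRG1 also split. NDRG3 rose by 0.24 (adjusted p = 0.0147, limma). NDRG4 rose from 3.43 ± 0.02 to 4.42 ± 0.03 (mean ± SD, n = 3, limma, adjusted p = 1.46e-05), and NDRG2 fell from 2.01 ± 0.11 to 1.31 ± 0.07 (mean ± SD, n = 3, limma, adjusted p = 5.87e-04).

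Since BNIP3 acts in mitophagy, other genes of that process were counted. Of 14, 13 were tested, 2 (15.4%) rose and 4 (30.8%) fell, with a median log2 fold change of -0.029. The share past the threshold, 46.2%, was below the 56.9% of all rows. One of the 4, PHB2, a mitophagy receptor of the inner membrane, carries a constant of 0.2 in its parental values and is not past the threshold with it subtracted (adjusted p = 0.385, limma). BNIP3L (NIX), the paralog of BNIP3 and also a hypoxia target, was at 5.10, 5.15 and 5.22 in parental and 4.51, 4.80 and 4.57 in adapted samples on the log2 scale. It fell by 0.53 (adjusted p = 0.00174, limma). FKBP8, a mitophagy receptor, fell by 0.36 (adjusted p = 0.00318, limma), and CALCOCO2 (NDP52), a cargo receptor, fell by 0.42 (adjusted p = 8.23e-04, limma). PINK1, the kinase that marks damaged mitochondria, rose from 4.10 ± 0.06 to 4.93 ± 0.03 (mean ± SD, n = 3, limma, adjusted p = 4.5e-05). OPTN, a cargo receptor of the PINK1 pathway, rose by 0.73 (adjusted p = 2.76e-04, limma).

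The rows closest to BNIP3 in pattern were found from the root mean square distance between values centered on each row's mean, over the 6 samples. They were ASPH, an aspartyl hydroxylase gene, at a distance of 0.045, ABCA1, a cholesterol exporter, at 0.059, and PPFIA4 at 0.069 on the log2 scale. The log2 fold change was -1.96 for ASPH and -2.02 for PPFIA4, with ABCA1 between them. With 3 samples a group this likeness rests mainly on the difference between the groups.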

How the data were processed

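RNA-sequencing values of 6 H1975 samples (3 parental, 3 adapted) were analyzed. The authors deposited 1 table of log2 values, taken from the values themselves as log2(FPKM + 1), because undoing the logarithm gives numbers of at most 6 decimals in all but 147 of 27216 rows. The unit is not named. The submitters' processing notes name Bowtie2 2.1.0, STAR, edgeR and hg38 without their roles, and the quantifier and annotation are not given in the sources used here. DESeq2, which the methods of the study name, was not used, since it needs counts. Here an unpaired limma model (limma 3.58.1, R 4.3.3, empirical Bayes with a trend on mean level) was fitted to the 12656 rows with a mean of at least 1, with Benjamini-Hochberg adjustment over all of them and a threshold of 0.05. In simulated data for this comparison with 200 of 12656 rows changed by a log2 fold change of 1, 86.5% were recovered and 3.35% of the calls were unchanged rows. In the real data 56.9% of the rows passed, and the simulated noise was independent between rows, so these shares need not hold there. Columns were matched to samples by group and replicate number.

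The 10 genes and the gene lists were chosen with earlier results of these data known. Named were the 10 genes, all HIF regulators, for each other list at most 3 risers and 3 fallers, those with the greatest change among genes past the threshold whose groups did not overlap, the pseudogene and antisense rows of the set (BNIP3P1, HIF1A-AS1, HIF1A-AS2 and EGLN3-AS1, none found under these names), BNIP3L, and the 3 rows most like BNIP3. The readthrough row of EGLN2, the receptor genes under the filter, CD68, PHB2 and the epithelial markers were added with their values known. NDRG3, PECAM1 and CDH5 were added in the same way. A gene that this rule names is not reported here. Other settings tried were a pseudocount of 0.1, an unfiltered table, a mean of at least 3, quantile normalization, centering on the median, an equal linear sum per sample, eBayes without a trend, omission of each sample in turn, a block for the replicate number, and leaving out the rows with a constant or subtracting it.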

Additional observations from a re-analysis of the deposited data

How the results depend on the processing

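The log2 fold changes of the 9 fitted genes of the set kept their sign in the 16 alternatives, or 15 for EGLN3 and ANKRD37, which the filter at a mean of 3 removed. With a pseudocount of 0.1 those of EGLN3 (-2.06) and ANKRD37 (-0.56) moved by more than the pooled SD of their replicates. The number of rows past the threshold, 7202, fell to 4532 with the filter at a mean of 3, which tested 7693 rows, and was 5763 to 8370 when 1 sample was left out, highest without adapted replicate 1. Same-numbered samples did not deviate together (r = -0.051, -0.031 and -0.020 across rows), so the numbers were not taken to pair samples. With the replicate block 6761 rows passed, and ELOC lost its call (adjusted p = 0.0526, limma). The number of genes past the threshold in both directions together stayed within 1.5 times for each of the 5 gene lists. By direction it did not: HIF regulators that fell went from 2 to 1 with the block and without parental replicate 1 or 3, receptors and relatives that rose from 5 to 3 without parental replicate 2 or 3, other hypoxia targets that rose from 3 to 1 with the filter at a mean of 3, and glycolytic targets that rose from 1 to 0 without the rows with a constant. Log2 fold changes near 0 turned sign for ARNT (-0.0215 to 0.184 with 1 sample left out, negative without adapted replicate 3), ELOB (-0.0959 to 0.0803, positive without parental replicate 1 or adapted replicate 3) and RBX1 (-0.0735 to 0.0976, positive without parental replicate 2 or adapted replicate 3, and 0.0020 with an equal linear sum). No depth is known, so the counting error of low values such as those of CA9 and ANKRD37 cannot be estimated.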
